A study of Mus musculus with 30 samples.

Results

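The germ cell and meiosis genes are 40 mouse genes known for expression in sperm, eggs and their precursors, taken by name from a list that was drawn up with earlier results of these data known. All 40 were found among the 35999 gene symbols of the B6 Aire-GFP+ libraries and among the 55011 genes of the mTEChi libraries. By known role they divide into 6 genes of germ cell identity, 8 of the piRNA pathway and transposon control, 12 of meiosis, 11 of sperm and 3 of the egg coat.

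The study sequenced polyadenylated RNA of medullary thymic epithelial cells (mTECs), stromal cells of the thymus that show developing T cells proteins of other tissues. The transcription regulator Aire is needed for many of those genes, and the comparisons ask what follows when Aire is lost and when spermidine, topotecan or a deletion of Nfe2l2 is applied. Each library held RNA of 1000 cells sorted from female mice aged 4 to 6 weeks, after depletion of CD45+ cells. Of 30 samples, 21 are used here, all on the C57BL/6J strain. The B6 Aire-GFP+ cells, sorted by a GFP reporter of Aire in both genotypes and given no treatment, gave 3 libraries labelled WT and 2 labelled Aire-KO. The mTEChi cells, as the labels name the other sort, gave 8 groups of 2 libraries. WT and Aire-KO mice each received PBS or spermidine (a polyamine) by intraperitoneal injection. Further WT mice received DMSO, a solvent, or topotecan, a poison of topoisomerase I. The last 2 groups were untreated mice with Foxn1-cre, a Cre driven by the Foxn1 promoter of thymic epithelium, and Nfe2l2 either +/+ or fl/fl, so both carry Cre. The sources used here name no dose, no time and no Aire allele.

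Germ cells set themselves apart through RNA-binding proteins and helicases such as DAZL and DDX4, guard their genome with small piRNAs loaded onto PIWI proteins, and pair and recombine their chromosomes in meiosis. Meiosis begins with DNA breaks cut by SPO11 and proceeds on an axis of cohesins and synaptonemal complex proteins. In most other tissues these genes are shut by DNA methylation and by repressors that bind E-box and E2F motifs, and mTECs are known as an exception in which many of them are read at low level.

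Whole-gene counts did not check the labels of either deletion. Aire stood at 1603, 1686 and 1671 CPM (counts scaled to the library total) in B6 WT and at 1508 and 1774 in B6 Aire-KO, and at 1621 to 1814 in the WT and 4096 to 5075 in the Aire-KO mTEChi libraries given PBS or spermidine. Nfe2l2 stood at 90.7 and 91.4 CPM in the +/+ and 105 and 86.6 in the fl/fl libraries. Below, Aire-KO and fl/fl mean the libraries so labelled. Totals ran from 6615295 to 12682072 counts in B6 and from 2027205 to 5724045 in mTEChi, so 1 count weighs far more in mTEChi. Nothing says that libraries of a group came from separate mice, so p values measure the spread between libraries. The 12 mTEC markers summed to 30650 to 31260 CPM in B6 WT and 67490 to 71140 in B6 Aire-KO, and to 23560 to 24790 and 41700 to 43070 in the corresponding mTEChi groups. Of these markers Ccl21a was at 0 in 7 of the 8 mTEChi groups. Of the 12, 5 were called higher and 2 lower in B6, and 7 higher and 1 lower of 11 tested in mTEChi. The MHC class II genes H2-Aa and H2-Ab1 carried most of the sum, at 18570 and 44590 CPM in B6 Aire-KO, whereas Krt5 fell in both experiments (log2 -1.43 and -1.06) and Cldn4 fell in B6 (log2 -0.70) and rose in mTEChi (log2 0.62). The myeloid, fibroblast and B cell sums in B6 Aire-KO against WT rested on single genes that rose while others fell. Myeloid markers summed to 2148 to 2155 against 957.6 to 1386 CPM, of which Lyz2 was 2130, while Csf1r, Flt3 and Itgam fell (3 lower and 1 higher of 5). Fibroblast markers summed to 249.1 to 329.4 against 82.2 to 130.5 CPM, of which Dcn was 273, while Col1a1 and Col3a1 fell (log2 -6.41 and -4.31). B cell markers summed to 75.1 to 87.5 against 40.4 to 47.4 CPM, of which Cd79b was 71.6, while Cd79a fell (log2 -3.13). Thymocyte markers summed to 23.4 to 40.3 against 56.0 to 84.4 CPM, with 3 lower and 0 higher of 9. Endothelial markers summed to 34.5 to 37.6 against 20.4 to 29.5 CPM, with 0 lower and 1 higher of 3 tested. Erythroid markers had 0 called of 5 and set the 2 Aire-KO libraries apart, at 127.8 CPM in replicate 1 and 1458 in replicate 2, against 334.5 to 633.4 in WT. In mTEChi, 3 fibroblast markers, 1 myeloid and 1 thymocyte marker fell and 0 rose. Their part in the results was not tested. In bulk RNA, fewer cells that express a gene and less RNA per cell cannot be told apart.

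Every one of the 40 genes had a count in at least 1 of the 21 libraries, and 35 had a count in each of the 3 B6 WT libraries. Between 36 and 38 genes were detected per B6 WT library and 31 in each B6 Aire-KO library, although the Aire-KO libraries were not shallower as a group. In mTEChi, 30 to 34 genes were detected in the WT libraries given PBS or spermidine and 21 to 29 in the Aire-KO libraries of the same experiment. Over all genes, those with enough counts to compare a pair of replicates were also fewer in Aire-KO. They numbered 17332 to 17869 in B6 WT pairs and 15038 in the B6 Aire-KO pair. In mTEChi they numbered 14691 and 15056 in WT (PBS and spermidine) and 13658 and 13032 in Aire-KO. Whether detection of the germline genes fell more than that of all genes was not tested. Sycp3, a core protein of the synaptonemal complex, and Pgk2, the sperm form of a glycolytic kinase, had 0 counts in all 5 B6 libraries.

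**Figure D1:**
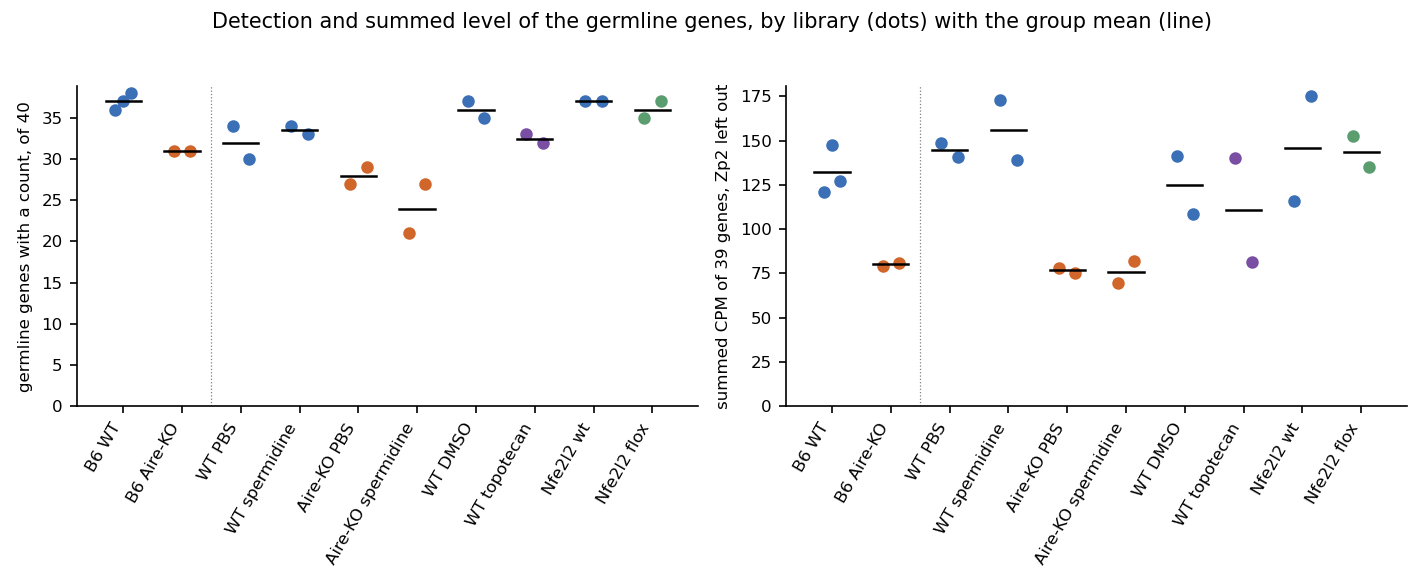
Left, germline genes with at least 1 count per library (of 40); right, summed CPM of 39 genes without Zp2; dots are libraries and lines group means. The B6 Aire-KO libraries sit at 31 genes and 79.1 to 81.1 CPM, below the B6 WT libraries at 36 to 38 genes and 121 to 148 CPM.

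Per transcript length, Zp2 stood above the other 39 genes. This gene, which encodes a protein of the egg coat, reached 52.1 ± 4.37 TPM (a length-scaled share of all transcripts; SD, n = 3) in B6 WT cells. Next came Tnp2 at 18.9 ± 8.03 TPM, a transition protein that packs sperm chromatin, then Zp3 at 13.1 ± 9.37, Ldhc at 10.4 ± 7.35 and Sohlh1 at 9.53 ± 3.72. The library ranges of Tnp2, Zp3, Ldhc and Sohlh1 overlapped, so their order is not fixed, whereas the lowest Zp2 library (47.2 TPM) lay above the highest of any of them (27.1). Zp2 alone made up 40.9 to 42.7% of the summed CPM of the 40 genes in B6 WT, and 74.1 to 78.5% in B6 Aire-KO. With Zp2 left out, the sum was 121 to 148 CPM in B6 WT and 79.1 to 81.1 in B6 Aire-KO, and 139 to 173 and 69.5 to 81.8 CPM in the WT and Aire-KO mTEChi libraries given PBS or spermidine. The same genes led in mTEChi: over 6 control libraries, RPKM (reads per kilobase of exon and per total reads) averaged 48.5 for Zp2, 12.3 for Zp3, 7.12 for Tnp2 and 4.50 for Ldhc.

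In B6 Aire-GFP+ cells labelled Aire-KO, 10 germline genes fell and 3 rose. Of the 10 that fell, 9 belong to germ cell identity, the piRNA pathway or the egg coat. These roles held 6, 6 and 3 of the 33 germline genes tested, and differences between roles were not tested. The 10 were Ddx4, Dazl, Sohlh1, Mael, Piwil2, Asz1, Mov10l1, Ldhc, Zp1 and Zp3, and the 3 were Zp2, Tnp2 and Spo11. Called means an adjusted p under 0.05 by edgeR's quasi-likelihood test with Benjamini-Hochberg adjustment over all 17923 genes tested. Of those genes 22.3% were called lower and 19% higher. The low-count filter passed 33 of the 40 germline genes. A gene that passes only through its WT libraries had to be lower in Aire-KO, so the count and the median that follows describe the list and do not test it. The median log2 fold change of the 33 was -1.29, and that of all genes tested -0.12. With library totals alone as the scaling, the split of all genes moved from 4000 lower and 3410 higher to 6250 and 1591 and their median to -0.51, and the germline genes called were 11 lower and 2 higher. By limma-voom, Ddx4 (adjusted p = 0.0821), Dazl (0.0697), Mael (0.112), Ldhc (0.0538) and Zp3 (0.0648) missed the threshold.

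In mTEChi, with the Aire effect averaged over PBS and spermidine, 8 germline genes fell and 2 rose. Ddx4, Sohlh1, Piwil2, Asz1, Ldhc, Zp1 and Zp3 fell as they had in B6, Stk31 fell in mTEChi, and Zp2 and Spo11 rose in both. Over all 18418 genes tested, 12.5% were called lower and 10.3% higher. Of the 40 germline genes 27 passed the filter, with a median log2 fold change of -1.17 against -0.05 over all genes. As in B6, a gene that passes only through libraries with Aire had to be lower in Aire-KO. The count and the median therefore describe the list and do not test it. With library totals alone, the split of all genes moved from 2305 lower and 1890 higher to 3222 and 1167, with a median of -0.23, and the germline genes called were 9 lower and 1 higher. By limma-voom, Sohlh1 (adjusted p = 0.116), Asz1 (0.222), Stk31 (0.160), Ldhc (0.0593) and Zp1 (0.343) missed the threshold, and by DESeq2 Stk31 did (0.0532). The B6 and mTEChi comparisons share no library. Dazl, Mael, Mov10l1 and Tnp2 were called in B6 and not in mTEChi, where Mael did not pass the filter, and the difference between the experiments was not tested.

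**Figure D2:**
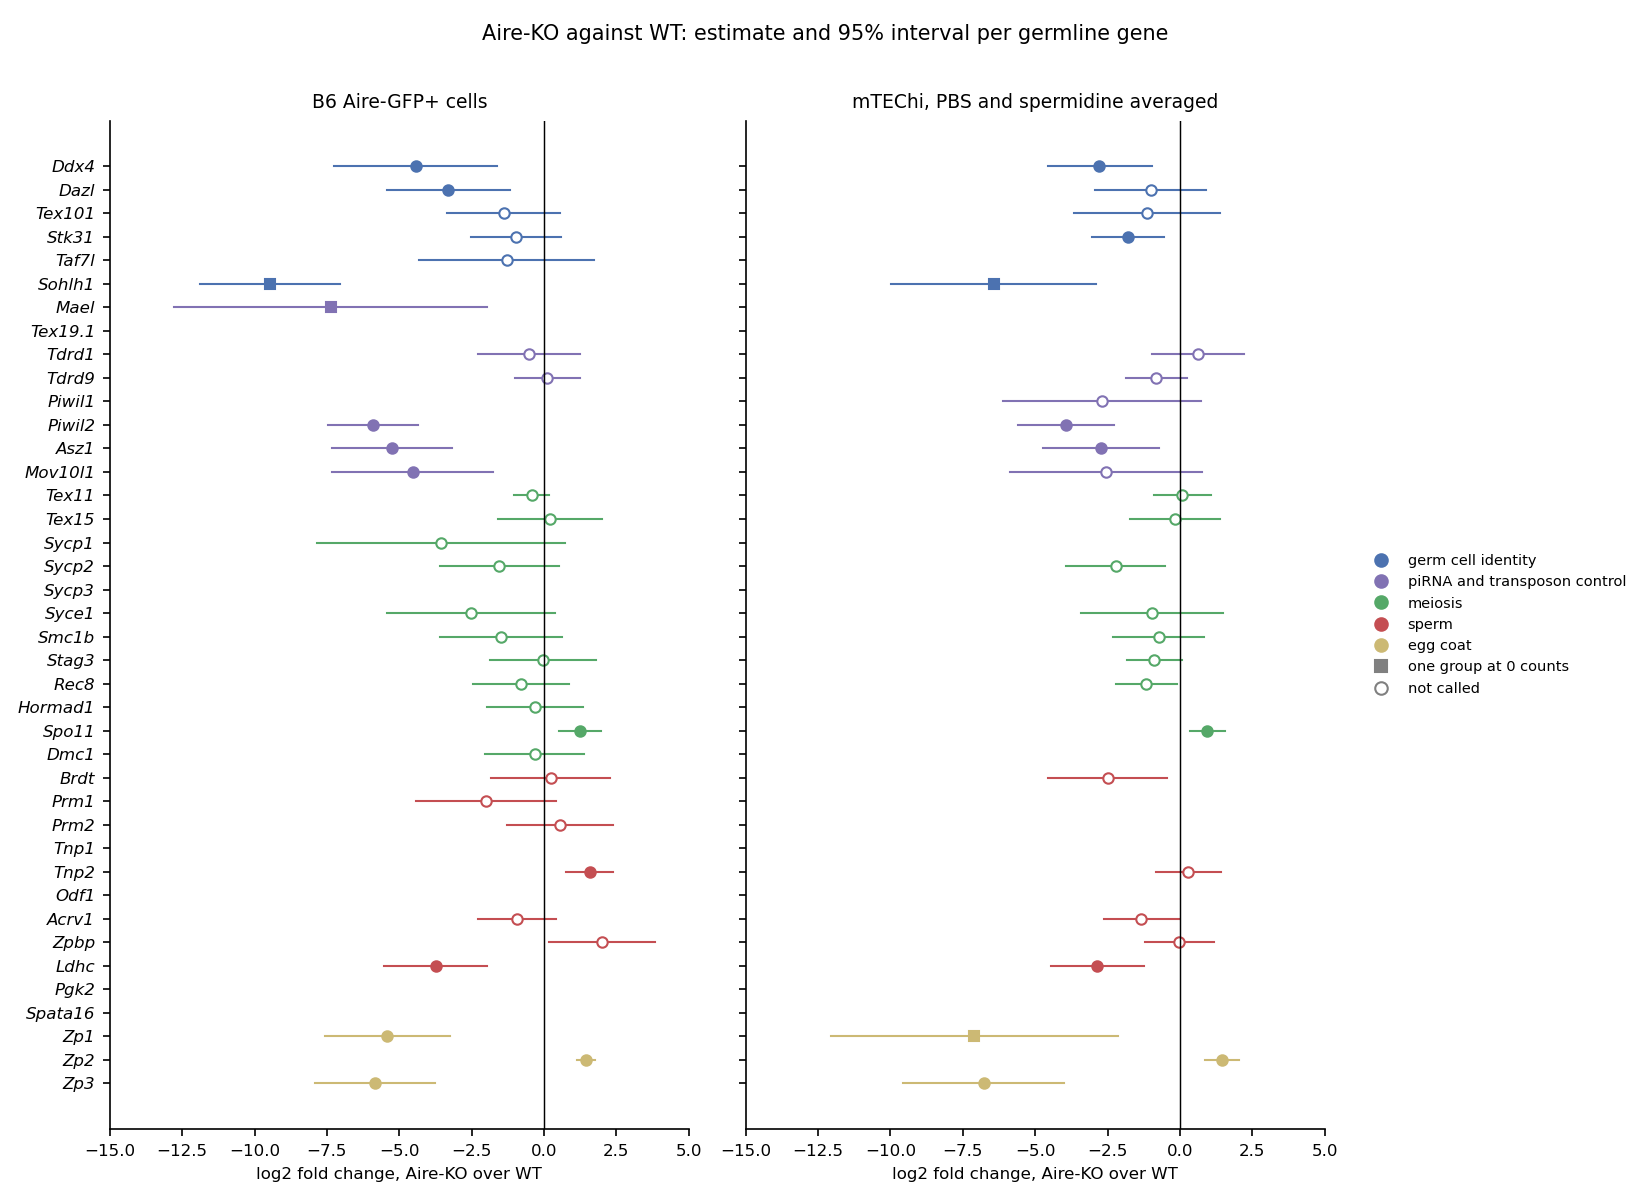
Log2 fold change of Aire-KO over WT with its 95% interval for each germline gene tested, B6 left and mTEChi right, coloured by role; filled symbols passed the test. Squares mark genes with a group at 0 counts, whose position depends on the fit and is no bound. Zp2 and Spo11 lie right of 0 in both panels, whereas Piwil2, Asz1, Zp1 and Zp3 lie far to the left.

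The promoters of these genes are shown because many of them share a short motif. Of the 40 genes 33 matched the RefSeq promoter table (build GRCm38.p6), which spans 250 bases before to 50 bases after each start. The E-box CACGTG, which reads the same on both strands, stood in at least 1 promoter of 16 of the 33 genes (48.5%), against 8.09% of all 27025 genes in the table. It stood in 4 of 6 identity genes, 5 of 7 piRNA genes, 4 of 9 meiosis genes and 2 of 10 sperm genes. The E2F-type motif TCCCGC, searched on both strands, stood in 11 of 33 germline genes (33.3%) against 22.0% of all genes, and 7 of those 11 were meiosis genes. CpG content moved with this: 52.6% of the germline promoters and 35.4% of all promoters had an observed over expected CpG ratio above 0.6, and its part in the motif counts was not tested. Among the 9 matched genes called lower in either Aire comparison 6 had an E-box, and among the 23 called in neither comparison 10 did. A match describes these letters and does not show that a factor binds there.

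**Figure D3:**
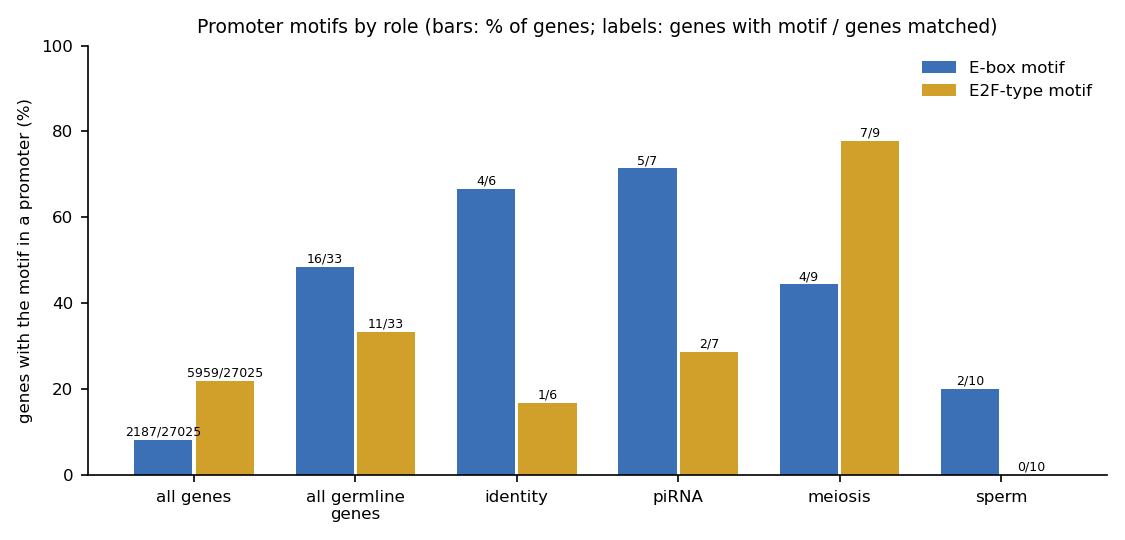
Percent of genes with an E-box or an E2F-type motif in a promoter of 300 bases, for all 27025 genes and for the 33 matched germline genes, in all and by role; labels give genes with the motif over genes matched. The E-box bar is 8.09% for all genes and 48.5% for the germline genes, and the E2F-type bar is 77.8% for 9 meiosis genes and 0% for 10 sperm genes. The egg coat, with 1 matched gene, Zp3, has no bars of its own.

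The 6 genes called lower that have an E-box are printed with Asz1, called lower without one. Each line gives the 250 bases before a RefSeq start, 5′ to 3′ on the gene's strand, with E-box and E2F-type matches in capitals. Sohlh1 is at chr2:25847249-25847498 (minus strand), Ddx4 at chr13:112652311-112652560 (minus strand) and Stk31 at chr6:49395289-49395538 (plus strand). Mael is at chr1:166238745-166238994 (minus strand), Mov10l1 at chr15:88982744-88982993 (plus strand), Zp3 at chr5:135979855-135980104 (plus strand) and Asz1 at chr6:18109062-18109311 (minus strand).
Sohlh1: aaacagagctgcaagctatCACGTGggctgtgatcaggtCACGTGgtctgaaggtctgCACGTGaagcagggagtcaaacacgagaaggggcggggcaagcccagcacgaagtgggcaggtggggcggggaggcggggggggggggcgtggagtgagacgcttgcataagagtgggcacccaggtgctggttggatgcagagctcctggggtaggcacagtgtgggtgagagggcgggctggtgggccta
Ddx4: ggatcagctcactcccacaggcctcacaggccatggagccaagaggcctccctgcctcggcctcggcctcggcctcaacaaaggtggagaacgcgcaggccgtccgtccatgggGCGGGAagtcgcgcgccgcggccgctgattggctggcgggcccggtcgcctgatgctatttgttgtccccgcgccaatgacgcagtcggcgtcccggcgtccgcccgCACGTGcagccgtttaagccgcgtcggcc
Stk31: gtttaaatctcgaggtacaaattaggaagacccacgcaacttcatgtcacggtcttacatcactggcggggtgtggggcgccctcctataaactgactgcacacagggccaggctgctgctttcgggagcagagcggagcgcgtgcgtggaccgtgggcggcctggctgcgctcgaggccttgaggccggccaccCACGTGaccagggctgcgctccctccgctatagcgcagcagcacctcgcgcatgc
Mael: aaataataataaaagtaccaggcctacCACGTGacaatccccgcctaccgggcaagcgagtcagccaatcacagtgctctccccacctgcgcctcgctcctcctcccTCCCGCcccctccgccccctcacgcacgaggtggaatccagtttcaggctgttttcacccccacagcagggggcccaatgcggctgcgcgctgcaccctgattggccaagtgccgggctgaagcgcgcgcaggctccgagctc
Mov10l1: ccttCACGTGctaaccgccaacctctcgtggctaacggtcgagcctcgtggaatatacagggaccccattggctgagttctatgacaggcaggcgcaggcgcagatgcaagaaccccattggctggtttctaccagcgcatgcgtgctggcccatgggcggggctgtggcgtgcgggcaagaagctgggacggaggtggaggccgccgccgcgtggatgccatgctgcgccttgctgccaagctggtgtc
Zp3: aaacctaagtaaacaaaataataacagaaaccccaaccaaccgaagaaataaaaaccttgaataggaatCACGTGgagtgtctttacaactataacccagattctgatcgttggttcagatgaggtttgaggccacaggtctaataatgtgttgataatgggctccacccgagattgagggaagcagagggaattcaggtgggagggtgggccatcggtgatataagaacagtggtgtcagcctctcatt
Asz1: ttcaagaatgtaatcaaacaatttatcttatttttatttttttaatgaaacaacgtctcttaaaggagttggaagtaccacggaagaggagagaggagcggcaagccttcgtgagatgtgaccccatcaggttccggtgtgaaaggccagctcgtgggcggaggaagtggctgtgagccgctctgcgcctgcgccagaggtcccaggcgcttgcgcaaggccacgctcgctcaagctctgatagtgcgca
Sohlh1 holds 3 E-boxes, which begin 231, 211 and 192 bases before the start. In Ddx4 the E-box begins 29 bases before the RefSeq start used here. GENCODE starts this gene further upstream (chr13:112598333-112652475, minus strand), so by that annotation the E-box lies inside the gene. In Stk31 the E-box begins 55 bases before the start printed and 120 bases before a second RefSeq start. The Mov10l1 match begins 246 bases before the start, at the edge of the window.

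Among genes of germ cell identity, 3 fell in B6 and 3 in mTEChi, of 6 and 5 tested, and none was called higher. Of all genes tested, 22.3% were lower and 19% higher in B6, and 12.5% and 10.3% in mTEChi. With so few genes per role, differences between roles were not tested. Sohlh1 (chr2:25842995-25847248, GRCm38), a helix-loop-helix transcription factor of early spermatogonia and oocytes, had 8.29, 13.1 and 6.14 CPM in the 3 B6 WT libraries and 0 in both Aire-KO libraries. All 274 of its B6 counts were in WT, against a floor of 3 counts over the Aire-KO group, so it was at least 58.1-fold lower (adjusted p = 0.000586). Such bounds set the mean of the other group against the floor and do not allow for the spread between its libraries. In mTEChi it had 1.82, 1.46, 0.708 and 13.2 CPM in the WT libraries, in the order PBS 1 and 2 and spermidine 1 and 2 used for all genes, and 0 in all 4 Aire-KO libraries, at least 13.1-fold lower (adjusted p = 0.0146). Of its 40 mTEChi WT counts 30 were in WT spermidine replicate 2, and without that library it was at least 4.07-fold lower (adjusted p = 0.0473). In B6 the bound was 32.4-fold or 25.7-fold without Aire-KO replicate 1 or 2, since the floor of 3 counts then covers 1 library. The promoter with 3 E-boxes printed above is that of this gene. The single transcript Sohlh1-201, protein coding, held all of its B6 counts.

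Ddx4 (chr13:112598333-112652475), the germ cell RNA helicase also called Vasa, had 6.63, 1.23 and 3.78 CPM in B6 WT and 0.357 and 0 in B6 Aire-KO (log2 fold change -4.44 ± 1.23 (SE), adjusted p = 0.0211). Its mTEChi values were 4.00, 1.46, 3.9 and 3.5 CPM in WT and 0, 0.691, 0 and 1.03 in Aire-KO (log2 fold change -2.78 ± 0.84 (SE), adjusted p = 0.0279). WT and Aire-KO libraries did not overlap in either experiment, although the WT libraries themselves ranged widely. The B6 call was lost without Aire-KO replicate 2 (adjusted p = 0.0934). In mTEChi it was lost without WT PBS replicate 1 (0.131), WT spermidine replicate 1 or 2 (0.0691 and 0.0553), Aire-KO PBS replicate 1 (0.0934) or Aire-KO spermidine replicate 1 (0.0950), as adjusted p by edgeR.

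Dazl (chr17:50279395-50293636), an RNA-binding protein that licenses germ cells for meiosis, had 2.21, 1.41 and 4.35 CPM in B6 WT and 0.119 and 0.379 in B6 Aire-KO (log2 fold change -3.31 ± 0.921 (SE), adjusted p = 0.0216). The groups did not overlap, and the call was lost without Aire-KO replicate 1 (adjusted p = 0.105) or 2 (0.0574). In mTEChi the groups overlapped, at 4.00, 0.485, 3.54 and 2.19 CPM in WT and 0, 2.42, 0.971 and 1.55 in Aire-KO, and Dazl was not called (log2 fold change -1.01 ± 0.89 (SE), adjusted p = 0.453). Stk31 (chr6:49395604-49469501), a germ cell kinase with a Tudor domain, showed the reverse order of calls. It was not called in B6, with 1.94, 3.97 and 2.17 CPM in WT and 0.833 and 1.89 in Aire-KO (log2 fold change -0.97 ± 0.677 (SE), adjusted p = 0.283). In mTEChi it had 2.19, 3.88, 10.6 and 3.5 CPM in WT and 0.868, 1.38, 1.46 and 1.55 in Aire-KO and was called lower (log2 fold change -1.79 ± 0.584 (SE), adjusted p = 0.0398). Those groups did not overlap, but the call survived the removal of just 1 of the 8 libraries, WT spermidine replicate 2. Without WT spermidine replicate 1, its highest library, the adjusted p was 0.204, and without WT PBS replicate 1 or 2 it was 0.0509 and 0.124. Without Aire-KO PBS replicates 1 and 2 in turn it was 0.122 and 0.0790, and without the Aire-KO spermidine replicates 0.109 and 0.101. Tex101 and Taf7l, a sperm maturation protein and a germ cell form of a general transcription factor subunit, were tested in B6 and not called (log2 -1.40 and -1.29).

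In the piRNA pathway, 4 of 6 genes tested fell in B6 and 2 of 6 in mTEChi, with none higher, of 8 listed. The shares of all genes called lower were 22.3% and 12.5%. Piwil2 (chr14:70372477-70429383), a PIWI protein that carries piRNAs in the embryonic and spermatogonial germ line, had 8.02, 8.2 and 5.29 CPM in B6 WT and 0.119 and 0.0946 in Aire-KO (log2 fold change -5.92 ± 0.676 (SE), adjusted p = 0.000442). Its mTEChi level was 14.6, 7.76, 8.14 and 9.64 CPM in WT and 0, 1.38, 0.486 and 0.518 in Aire-KO (log2 fold change -3.94 ± 0.77 (SE), adjusted p = 0.00214). Each WT library lay above each Aire-KO library in both experiments, and the call held under all 12 alternatives in B6 and all 15 in mTEChi. All 207 of its B6 WT counts came from the protein-coding transcript Piwil2-201.

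Asz1 (chr6:18050964-18109061), a mitochondrial anchor of the piRNA machinery, had 4.15, 6.96 and 2.36 CPM in B6 WT and 0.119 and 0.0946 in Aire-KO (log2 fold change -5.25 ± 0.9 (SE), adjusted p = 0.00275). In mTEChi the values were 1.09, 4.85, 6.02 and 0.876 CPM in WT and 0, 0.345, 1.46 and 0.518 in Aire-KO (log2 fold change -2.73 ± 0.938 (SE), adjusted p = 0.0494). The B6 groups were far apart, whereas in mTEChi WT spermidine replicate 2 lay below Aire-KO spermidine replicate 1. The mTEChi call, close to the threshold, was lost without WT PBS replicate 2 (adjusted p = 0.208) or WT spermidine replicate 1 (0.318). It was also lost without each Aire-KO library, at 0.150 and 0.0766 for PBS replicates 1 and 2 and at 0.0800 and 0.136 for spermidine.

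Mov10l1 (chr15:88982909-89055152), the helicase that starts piRNA processing, had 1.52, 0.881 and 2.08 CPM in B6 WT and 0 and 0.0946 in Aire-KO (log2 fold change -4.54 ± 1.21 (SE), adjusted p = 0.0182). Mael (chr1:166201201-166238747), a germ granule protein of transposon silencing, had 5.12, 1.23 and 0.189 CPM in B6 WT and 0 in both Aire-KO libraries, at least 13.8-fold lower (adjusted p = 0.0381). The groups did not overlap for either gene, but Mael rested mostly on WT replicate 1, with 37 of its 53 counts, and without it Mael was at least 4.50-fold lower. The bound for Mael was 7.68-fold or 6.10-fold without Aire-KO replicate 1 or 2. Both calls were lost without Aire-KO replicate 1 or 2, which leaves 1 library in that group. Of the 5 fits that left out a B6 library, each gene was tested in 3 and kept its call in 1. Where it was not tested, it did not pass the low-count filter. In mTEChi, Mov10l1 was listed at 0 in 2 of 4 WT and 2 of 4 Aire-KO libraries and was not called (log2 -2.55, adjusted p = 0.261). Tdrd9, a piRNA helicase, and Tdrd1, a Tudor scaffold of the germ granule, were not called in either experiment, with log2 fold changes of 0.11 and -0.53 in B6 and -0.82 and 0.62 in mTEChi. Tdrd9 kept 7.74 and 10.9 CPM in the B6 Aire-KO libraries, against 8.16, 13.8 and 3.97 in WT. Piwil1 and Tex19.1 did not pass the filter in B6, at under 1 CPM in every B6 library. In mTEChi, Mael had 0.364, 0, 0.354 and 0.438 CPM in WT and 0 in all 4 Aire-KO libraries, too few counts to be tested, and Piwil1 was tested and not called (log2 -2.70, adjusted p = 0.249).

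**Figure D4:**
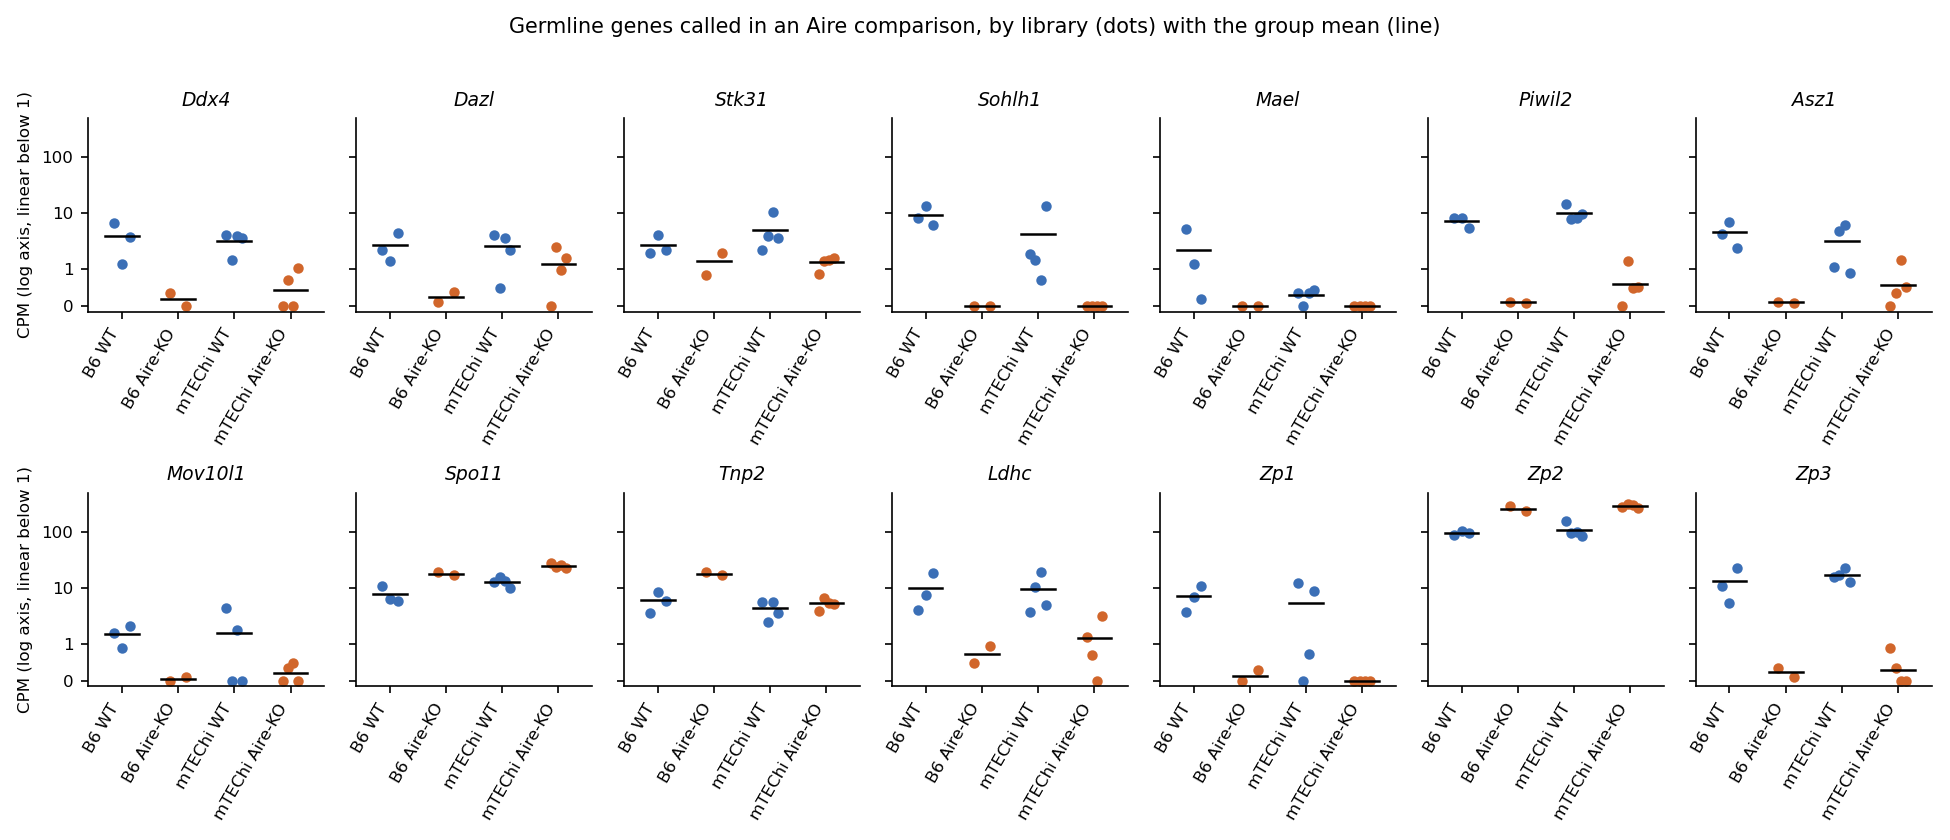
CPM per library (dots) and group mean (lines) of the 14 germline genes called in either Aire comparison, in B6 WT, B6 Aire-KO, mTEChi WT and mTEChi Aire-KO (PBS and spermidine); the axis is logarithmic above 1 CPM and linear below. Sohlh1 lies at 0 in all 6 Aire-KO libraries, and Zp2 and Spo11 are higher in every Aire-KO library than in any WT library of the same experiment.

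Among meiosis genes, none of the 11 tested in B6 or the 8 tested in mTEChi was called lower, and Spo11 was called higher in both. Of all genes, 22.3% were lower and 19% higher in B6, and 12.5% and 10.3% in mTEChi. The unadjusted p was under 0.05 for 1 of the 11 meiosis genes in B6, against 9054 of all 17923 genes. In mTEChi it was so for 3 of the 8, against 6467 of all 18418 genes. In B6 the 10 genes not called had log2 fold changes from -3.57 to 0.21, and in mTEChi the 7 not called ran from -2.21 to 0.08. Whether meiosis genes differ from the other roles was not tested, and most had few counts.

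Spo11 (chr2:172977700-172993576), the enzyme that cuts DNA to start meiotic recombination, had 10.6, 6.35 and 5.76 CPM in B6 WT and 18.8 and 16.7 in Aire-KO (log2 fold change 1.24 ± 0.317 (SE), adjusted p = 0.0155). In mTEChi it had 12.7, 15.5, 13.1 and 10.1 CPM in WT and 27.3, 23.1, 25.3 and 22.8 in Aire-KO (log2 fold change 0.94 ± 0.278 (SE), adjusted p = 0.025). Every Aire-KO library was higher than every WT library of its experiment. The reads were mainly not those of the enzyme's coding transcript: Spo11-204, annotated as a retained intron of 3619 bases, held 78.4% of B6 WT and 69.6% of B6 Aire-KO counts. With protein-coding transcripts alone the B6 call was lost (log2 1.74, adjusted p = 0.248). The B6 call was also lost without WT replicate 2 (adjusted p = 0.0537), Aire-KO replicate 1 (0.0779) or 2 (0.0535), and with library totals as the scaling (log2 0.84, 0.0649). In mTEChi it was lost without any 1 of the 8 libraries (adjusted p 0.0506 to 0.0935) with library totals (log2 0.76, 0.0594) and with no low-count filter (0.0558). The mTEC marker sum, carried by H2-Aa and H2-Ab1 as given above, was also higher in the Aire-KO libraries of both experiments, and its part in this rise was not tested.

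Other meiosis genes are described by their values. Tex11, an X-linked gene of meiotic crossover, had 12.9, 11.3 and 12.0 CPM in B6 WT and 9.64 and 8.23 in B6 Aire-KO (log2 fold change -0.43 ± 0.26 (SE), adjusted p = 0.217). These groups did not overlap, but Tex11 was not called. Stag3, a subunit of meiotic cohesin, had 0.829, 2.47 and 0.661 CPM in B6 WT and 1.07 and 1.51 in B6 Aire-KO, which overlapped. Rec8, the cohesin ring subunit of meiosis, had 3.18, 2.03 and 1.42 CPM in B6 WT and 1.78 and 0.757 in B6 Aire-KO, also overlapping. Sycp2, a synaptonemal complex protein, had 1.82, 1.46, 2.12 and 6.57 CPM in mTEChi WT and 0.868, 0.345, 0 and 1.03 in Aire-KO, just short of a call (log2 fold change -2.21 ± 0.798 (SE), adjusted p = 0.0604). Dmc1, the recombinase of meiotic strand exchange, stayed between 0.663 and 1.24 CPM in all 5 B6 libraries. Sycp1, a filament of the synaptonemal complex, averaged 0.795 CPM in B6 WT and 0.0595 in Aire-KO with overlapping libraries (log2 fold change -3.57 ± 1.87 (SE), adjusted p = 0.159). Tex15, Smc1b and Hormad1 had means under 3 CPM in both B6 groups and log2 fold changes of 0.21, -1.50 and -0.31.

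Of 7 sperm genes tested in B6 1 fell and 1 rose (14.3% each, against 22.3% lower and 19% higher of all genes). Of 5 tested in mTEChi 1 fell (20%, against 12.5% of all genes). Ldhc (chr7:46861203-46878142), the testis form of lactate dehydrogenase, had 4.01, 7.32 and 18.1 CPM in B6 WT and 0.476 and 0.947 in Aire-KO (log2 fold change -3.74 ± 0.779 (SE), adjusted p = 0.00647). The mTEChi libraries gave 3.64, 10.2, 18.8 and 4.82 CPM in WT and 1.3, 0.691, 0 and 3.11 in Aire-KO (log2 fold change -2.85 ± 0.752 (SE), adjusted p = 0.0143). No Aire-KO library reached the lowest WT library in either experiment, although WT libraries of one experiment differed by more than 4-fold. The mTEChi call was lost without WT PBS replicate 2 (adjusted p = 0.0576), WT spermidine replicate 1 (0.0812) or Aire-KO PBS replicate 2 (0.0609). In B6 the transcript Ldhc-201 held 86.9% of WT counts, whereas all 14 Aire-KO counts were assigned to Ldhc-204.

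Tnp2 (chr16:10787936-10788660) had 3.59, 8.55 and 5.67 CPM in B6 WT and 18.8 and 16.9 in Aire-KO (log2 fold change 1.57 ± 0.359 (SE), adjusted p = 0.00963), and both Aire-KO libraries lay above all WT libraries. The call was lost without Aire-KO replicate 1 (adjusted p = 0.0519). In mTEChi the groups overlapped, at 5.46, 2.43, 5.67 and 3.5 CPM in WT and 3.91, 6.56, 5.34 and 5.18 in Aire-KO, and Tnp2 was not called (log2 fold change 0.29 ± 0.528 (SE), adjusted p = 0.74). Prm1 and Prm2, the protamines that replace transition proteins and lie next to Tnp2 on chromosome 16, were not called in B6 (log2 -2.02 and 0.54). Zpbp, an acrosome protein that binds the egg coat, had 0.277, 1.59 and 0.567 CPM in B6 WT and 2.14 and 4.64 in Aire-KO without passing the test (log2 fold change 2.01 ± 0.796 (SE), adjusted p = 0.0745). Its exons overlap those of Spata48 on the other strand, and nothing says that counting used strand, so reads of the pair cannot be told apart. In mTEChi, Brdt, a testis bromodomain protein, and Acrv1, an acrosome protein, were not called with log2 fold changes of -2.50 and -1.33 (adjusted p = 0.0768 and 0.129 by edgeR), and in B6 they had 0.23 and -0.94. Tnp1, Odf1, Pgk2 and Spata16 passed the filter in neither experiment.

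The 3 egg coat genes encode proteins of the same matrix, the zona pellucida, and were called in opposite directions in Aire-KO cells. Zp3 (chr5:135980099-135988624), a glycoprotein of the coat, had 10.6, 5.38 and 22.9 CPM in B6 WT and 0.357 and 0.0946 in Aire-KO (log2 fold change -5.84 ± 0.905 (SE), adjusted p = 0.00172). Its mTEChi values were 15.3, 17.0, 22.7 and 12.7 CPM in WT and 0.868, 0.345, 0 and 0 in Aire-KO (log2 fold change -6.77 ± 1.29 (SE), adjusted p = 0.00214). No Aire-KO library of either experiment exceeded 0.868 CPM, and no WT library of these comparisons was under 5.38 CPM.

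Zp1 (chr19:10914287-10920632), which crosslinks the coat's filaments, had 3.73, 6.7 and 10.8 CPM in B6 WT and 0 and 0.284 in Aire-KO (log2 fold change -5.41 ± 0.937 (SE), adjusted p = 0.00288). In mTEChi it had 12.0, 0, 0.708 and 8.76 CPM in WT and 0 in all 4 Aire-KO libraries, at least 16.5-fold lower (adjusted p = 0.0413). The mTEChi groups overlapped, because WT PBS replicate 2 also held 0. That call was lost without WT PBS replicate 1, without WT spermidine replicate 2 and without any 1 of the 4 Aire-KO libraries. Without WT PBS replicate 1 the WT mean was 9.67-fold above the floor, but it rested mostly on WT spermidine replicate 2, at 8.76 CPM.

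Zp2 (chr7:120126772-120145291), the third coat protein, rose instead. It had 89.2, 102 and 94.6 CPM in B6 WT and 289 and 232 in Aire-KO, 2.73-fold higher (log2 fold change 1.45 ± 0.129 (SE), adjusted p = 0.000163). Across mTEChi libraries it was 155, 94.1, 98.1 and 85.9 CPM in WT and 276, 319, 308 and 271 in Aire-KO, again 2.73-fold higher (log2 fold change 1.45 ± 0.281 (SE), adjusted p = 0.00204). Every Aire-KO library was above every WT library of its experiment, and the call held under all 12 alternatives in B6 and all 15 in mTEChi. The protein-coding transcript Zp2-201 held 67.7% of B6 WT and 76.1% of Aire-KO counts. As with Spo11, the mTEC marker sum was higher in the same libraries, and its part in the rise was not tested.

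**Figure D5:**
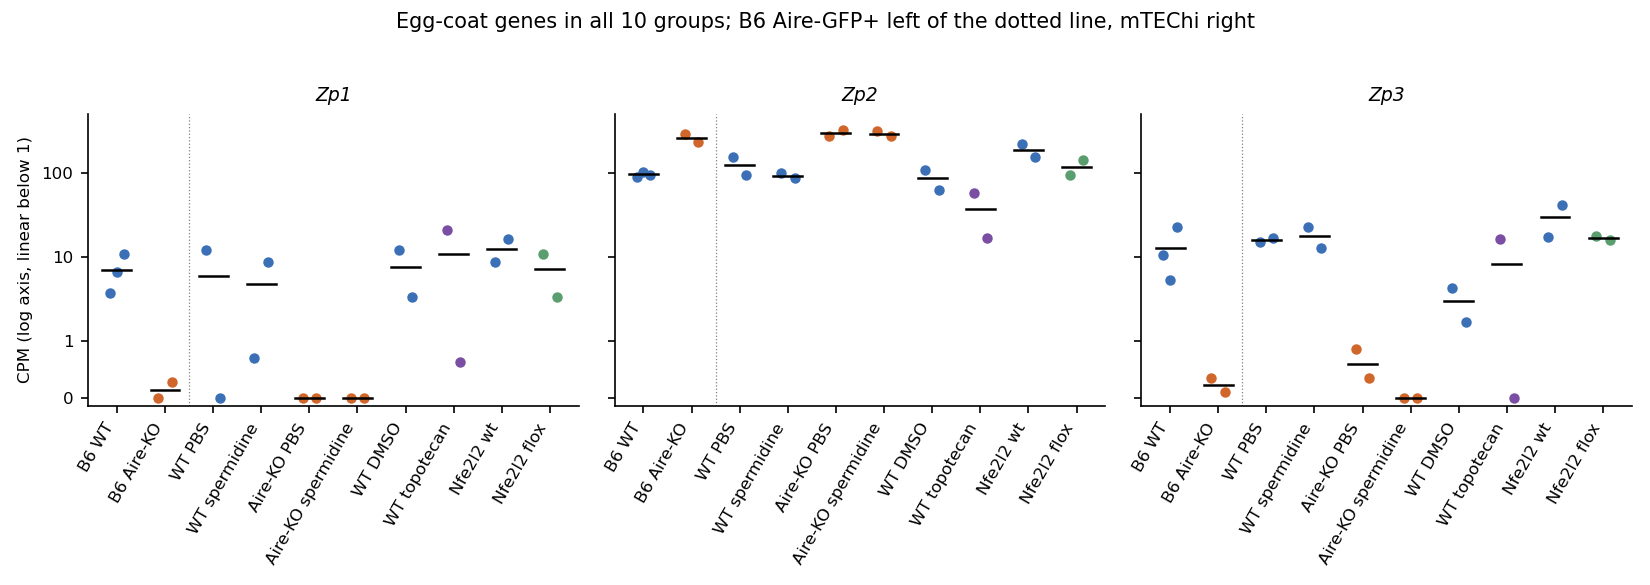
CPM of Zp1, Zp2 and Zp3 per library (dots) and group mean (lines) in all 10 groups, B6 left and mTEChi right of the dotted line; the axis is logarithmic above 1 CPM and linear below. Zp2 is present in all 21 libraries and highest in the Aire-KO groups, whereas Zp1 and Zp3 are at or near 0 there.

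With PBS alone, 2 germline genes were called lower, Piwil2 (log2 fold change -3.84 ± 1.02 (SE), adjusted p = 0.0278) and Zp3 (log2 fold change -4.70 ± 1.37 (SE), adjusted p = 0.0446), and none higher. Over all genes 5.08% were called lower and 5.21% higher in that comparison. With spermidine alone, which shares no library with PBS, the same genes were called lower, Piwil2 (log2 fold change -4.04 ± 1.16 (SE), adjusted p = 0.0425) and Zp3, which was at 0 in both Aire-KO libraries and at least 23.5-fold lower (adjusted p = 0.0255). Zp2 was called higher there (log2 fold change 1.65 ± 0.402 (SE), adjusted p = 0.0194), while with PBS it missed the threshold (log2 fold change 1.25 ± 0.394 (SE), adjusted p = 0.0584). In the spermidine comparison 4.34% of all genes were called lower and 4.77% higher. At an unadjusted p under 0.05 there were 12 of 27 germline genes with PBS and 10 of 27 with spermidine, against 4629 and 4353 of all 18418 genes. DESeq2 called 0 higher with PBS while limma-voom called 1. With 2 libraries a side, these calls were fragile. Without WT PBS replicate 1 or Aire-KO PBS replicate 1, Piwil2 lost its PBS call (adjusted p 0.136 and 0.194), and Zp3 lost it without any 1 of the 4 libraries (0.0971 to 0.244). In the spermidine comparison Piwil2 and Zp2 lost the call without any 1 of the 4 libraries (0.107 to 0.229 and 0.0731 to 0.124). Zp3 lost it without any but WT spermidine replicate 2 (0.0946 to 0.155), and without Aire-KO spermidine replicate 1 or 2 its bound was 11.4-fold or 12.1-fold.

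Spermidine gave no germline call. No gene of the list was called by edgeR, DESeq2 or limma-voom for spermidine against PBS in WT cells, in Aire-KO cells, or for the difference between these effects. Over all genes the percentages called were 0, 0.00543 and 0. At an unadjusted p under 0.05 the counts were 1, 0 and 1 of 27, in both cases Syce1, a synaptonemal complex protein. Over all 18418 genes they were 709, 759 and 619. Syce1 had 3.64 and 6.79 CPM in WT with PBS and 0 and 0.438 with spermidine, groups that did not overlap (log2 fold change -4.45 ± 1.23 (SE), adjusted p = 0.999). In Aire-KO cells it had 0.434 and 0.691 CPM with PBS and 0.486 and 0.518 with spermidine.

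Topotecan gave no called germline gene by edgeR, against 0.456% of all genes called lower and 0.195% higher. At an unadjusted p under 0.05 there were 6 of 27, against 2566 of all 18418 genes. DESeq2 called 2 lower and 1 higher, and limma-voom 0 in both directions. Piwil2 had 23.5 and 12.6 CPM with DMSO and 2.98 and 0.319 with topotecan (log2 fold change -3.43 ± 0.894 (SE), adjusted p = 0.0977). Sohlh1 had 6.88 and 1.4 CPM with DMSO and 0 in both topotecan libraries, and was not called (adjusted p = 0.162 by edgeR). Its DMSO mean was 8.50-fold above the floor, and 2.88-fold without DMSO replicate 1. Without topotecan replicate 1 or 2 it was 4.33-fold or 4.17-fold above the floor. Rec8 went the other way, with 2.29 and 0.561 CPM with DMSO and 9.28 and 12.1 with topotecan (log2 fold change 2.88 ± 0.726 (SE), adjusted p = 0.0871). The 2 groups of 2 did not overlap for any of the 3 genes, none of which was called by edgeR. How many of all genes did not overlap was not counted, so this separation is no support for a change. Aire was itself lower with topotecan, 730 ± 126 against 1340 ± 227 CPM (SD, n = 2 each, log2 fold change -0.88, adjusted p = 0.0125), and its part in these values was not tested. Zp2 had 108 and 62.8 CPM with DMSO and 57.3 and 16.9 with topotecan (log2 fold change -1.21 ± 0.422 (SE), adjusted p = 0.205). The mTEC marker sum was 15740 to 16660 CPM with topotecan and 18890 to 19730 with DMSO, and the thymocyte sum 337.9 to 360.9 and 245.3 to 283.3. The topotecan libraries 1 and 2 also stood apart in fibroblast markers (163.3 and 1303 CPM), endothelial markers (166.3 and 51.3) and erythroid markers (342.8 and 113.7), whose part in these values was not tested. They differed from each other for the egg coat, with 16.6 and 0 CPM of Zp3 and 21.2 and 0.637 of Zp1.

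Nfe2l2 fl/fl against +/+ gave no called germline gene, by edgeR, DESeq2 or limma-voom, and 0% of all genes were called. None of the 27 germline genes tested had an unadjusted p under 0.05, against 973 of all 18418 genes. Ldhc had the highest log2 fold change of the genes tested, with 6.59 and 2.09 CPM in +/+ and 10.9 and 9.9 in fl/fl (log2 fold change 1.25 ± 0.849 (SE), adjusted p = 1), a difference within an interval of -0.57 to 3.06 on the log2 scale. Smc1b, a meiotic cohesin subunit, had the lowest, with 2.12 and 3.26 CPM in +/+ and 0.474 and 0.884 in fl/fl (log2 fold change -1.90 ± 1.03 (SE), adjusted p = 0.999).

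Single libraries often carried a gene that its replicate lacked, in groups of 1000 cells each. Zp1 had 12.0 and 0 CPM in the WT PBS pair and 0.708 and 8.76 in the WT spermidine pair. Tex19.1, a repressor of transposons, had 0 and 7.76 CPM in WT PBS and at most 3.49 in any other library. Sohlh1 had 0.708 and 13.2 CPM in WT spermidine, a difference between replicates larger than between the group means of WT with PBS and spermidine. Zp2 had a count in every library, at 85.9 to 155 CPM over the 4 WT libraries given PBS or spermidine. It ranged more widely elsewhere, with 108 and 62.8 CPM with DMSO and 57.3 and 16.9 with topotecan. The Nfe2l2 libraries had 218 and 154 CPM in +/+ and 93.4 and 143 in fl/fl.

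Other germline genes, from lists kept apart from the 40, are read against all genes tested, of which 22.3% were lower and 19% higher in B6 and 12.5% and 10.3% in mTEChi. Among other meiosis genes 6 were lower and 4 higher of 23 tested in B6 (26.1% and 17.4%), and 1 lower and 2 higher of 20 in mTEChi (5% and 10%). Other piRNA genes gave 4 lower and 3 higher of 15 in B6 (26.7% and 20%) and 1 lower and 0 higher of 12 in mTEChi. Other sperm genes gave 3 lower and 1 higher of 14 in B6 (21.4% and 7.14%) and 1 lower and 0 higher of 10 in mTEChi. In B6 the shares of these lists that were lower lay near the share of all genes. Of egg genes outside the coat 6 of 11 tested in B6 (54.5%) and 5 of 10 in mTEChi (50%) were lower, with 1 and 2 higher. Astl, an egg protease, fell from 4.73 ± 1.90 to 0.226 ± 0.186 CPM in B6 and from 11.8 ± 9.39 to 0.230 ± 0.266 in mTEChi (SD, n = 3 and 2, and 4 each, adjusted p = 0.00391 and 0.000789 by edgeR). Nlrp5 and Ooep, of the maternal complex of the egg, also fell in both (log2 -3.32 and -0.78 in B6, -3.25 and -1.54 in mTEChi), as did the oocyte-secreted Oosp1, which was at 0 in the mTEChi Aire-KO libraries. Stra8, the switch that commits germ cells to meiosis, rose in both: 53.9 ± 19.6 CPM (n = 2) against 21.4 ± 5.17 (n = 3) in B6, and 21.9 ± 2.43 against 8.25 ± 0.850 (SD, n = 4 each) in mTEChi (log2 1.34 and 1.41, adjusted p = 0.00602 and 0.00195 by edgeR). Zar1, a maternal factor of the egg, also rose in both, from 3.64 ± 0.709 to 9.46 ± 0.414 CPM in B6 (n = 3 and 2) and from 2.49 ± 1.26 to 10.7 ± 2.76 in mTEChi (n = 4 each), with adjusted p of 0.0169 and 0.00517 by edgeR.

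Of 15 germline regulators tested in B6 7 fell and 1 rose (46.7% and 6.67%), and of 14 tested in mTEChi 4 fell and 1 rose (28.6% and 7.14%), against the same shares of all genes. This list overlaps those above: the 1 that rose was Stra8, counted there among other meiosis genes. Nobox, counted there among egg genes, is among those that fell. Pou5f1, a factor of pluripotent and primordial germ cells, fell from 7.86 ± 2.11 to 0.107 ± 0.0172 CPM in B6 (n = 3 and 2, adjusted p = 0.000386 by edgeR) and from 3.10 ± 1.24 to 0.121 ± 0.243 in mTEChi (n = 4 each, adjusted p = 0.00526). Nobox, a transcription factor of oocytes that acts on egg genes, was at 0 in every Aire-KO library of both experiments, with adjusted p of 0.0248 and 0.0209 by edgeR. Its WT level was 3.705 ± 4.412 CPM in B6 (SD, n = 3) and 4.042 ± 5.438 in mTEChi (SD, n = 4), so WT libraries differed widely. Dppa3, a maternal factor also called Stella, fell from 132 ± 16.2 to 62.0 ± 31.7 CPM in B6 (adjusted p = 0.0173) and from 47.1 ± 31.9 to 10.3 ± 5.63 in mTEChi (0.0140). The 18 silencers of germline genes were 4 lower and 2 higher in B6, and the 22.2% lower was near the 22.3% of all genes. In mTEChi 0 were lower and 1 higher, with 3 of 18 at an unadjusted p under 0.05, against 6467 of all 18418 genes. There Dnmt3a, a DNA methyltransferase, rose from 113 ± 9.76 to 165 ± 29.5 CPM (n = 4 each, adjusted p = 0.0113 by edgeR).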

How the data were processed

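Polyadenylated RNA of 1000 sorted mTECs per library was sequenced by a Smart-seq2 protocol, per the labels' protocols. For the B6 Aire-GFP+ cells the authors deposited kallisto tables of estimated counts and TPM per transcript, and for mTEChi cells a table of read counts per gene. The submitters' processing notes name STAR, featureCounts, kallisto, TopHat2 2.1.1, SAMtools 1.3.1 and build mm10. The NOD and F1 libraries were not used here.

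Estimated counts were summed per gene (116816 of 118489 transcripts matched the annotation; the unmatched held 0.541 to 0.578% of counts) and rounded. Each count table was fitted whole with edgeR 4.0.16 in R 4.3.3 (TMM scaling, filterByExpr, quasi-likelihood test, Benjamini-Hochberg adjustment over all genes tested, called at an adjusted p under 0.05). All 16 mTEChi libraries shared 1 fit, and no covariate was used. CPM values use TMM-scaled totals, and RPKM values were computed from the exon length of each gene. For a gene at 0 in a group, the fold was bounded by the mean of the other group over a floor of 3 counts in that group. Floors cover counting error only, since reads carry no molecular identifiers. The bounds do not allow for the spread between libraries of the other group. Alternatives used median-of-ratios size factors, library totals, no filter, DESeq2 1.42.0, limma-voom (limma 3.58.1), a replicate block, the libraries of 1 experiment, protein-coding transcripts and leaving out each library. The fits were tested on simulated data with 200 genes changed 4-fold: the B6 fit recovered 149 (22 of 171 calls false) and the averaged mTEChi fit 159 (4 of 163 calls false). The 200 were drawn only from genes above a minimum mean count, below which many germline genes lay in mTEChi. Recovery at their level was therefore not measured.

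No pair of replicates agreed within counting noise (chi-square per degree of freedom 3.05 to 19.7). The 40 genes and the other gene lists were chosen with earlier results of these data known. Values in every library were given for germline genes called in either Aire comparison, then for those called elsewhere and for the 5 of highest TPM; the rest were given by range and count. Genes of other lists were named where called. Uncalled germline genes named with values, and genes neighbouring the called ones, were picked after their values were seen. Promoters came from the RefSeq table of build GRCm38.p6, and gene positions from GENCODE for GRCm38.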

Additional observations from a re-analysis of the deposited data

How the results depend on the processing

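In B6 the 10 germline genes called lower became 5 by limma-voom and 6 to 10 when libraries were left out in turn, and the 3 called higher became 1 to 3. In mTEChi with PBS and spermidine averaged, the 8 lower became 3 by limma-voom, 4 with the libraries of that experiment alone and 4 to 7 with a library left out. The 2 higher became 1 with library totals, with no filter and with each library left out (1 to 1). With PBS alone, the 2 lower became 5 with no filter, 0 by limma-voom and 0 to 1 with a library left out, and the 0 higher became 1 with no filter, by limma-voom and with that experiment alone. With spermidine alone, the 2 lower became 5 with no filter, 4 by DESeq2, 0 by limma-voom and 0 to 1 with a library left out, and the 1 higher became 2 with that experiment alone and 0 to 0 with a library left out. For topotecan, the 0 lower became 3 with no filter, 2 by DESeq2 and 0 to 1 with a library left out, and the 0 higher became 1 with no filter and 1 by DESeq2. The cause of these moves was not tested, except that a left-out library also leaves fewer samples; where it leaves 1 library in a group, that library is assumed to vary like the other groups.

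The labels do not pair the libraries, and deviations of same-numbered replicates correlated at -0.009 to 0.066. With a replicate block, 8 germline genes were called lower in B6 and 5 in the averaged mTEChi comparison, and 1 was called higher with PBS. Of the single-gene values under alternatives, 265 kept their direction and call, 89 kept the direction without the call and 0 reversed. With 2027205 to 5724045 counts per library, 1 count in an mTEChi library is a large part of the level of most of these genes, and a difference between low genes was often not detectable at this depth.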

Other observations

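The nearest protein-coding gene on either side of each of the 14 germline genes called in an Aire comparison was looked up after their values were seen. Of these 28 neighbours, 24 were tested in B6, with 4 called lower and 5 higher, against 22.3% and 19% of all genes, and 26 in mTEChi, with 5 lower and 4 higher, against 12.5% and 10.3%. The neighbours called in both experiments were Npy and Rftn1. Npy, a neuropeptide gene 353 kb from Stk31, fell from 59.8 to 6.64 CPM in B6 and from 17.2 to 1.02 CPM in mTEChi (adjusted p = 0.00327 and 0.00606 by edgeR). Rftn1, a lipid raft gene 88.7 kb from Dazl, rose from 101 to 277 CPM in B6 and from 103 to 299 CPM in mTEChi (log2 fold change 1.45 and 1.53, adjusted p = 0.000107 and 2.18e-06 by edgeR).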
